A study of Mus musculus with 24 samples.

Results

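The genes of the matrix metalloproteinases, of the ADAM and ADAMTS proteases and of their inhibitors, the TIMPs, were examined for acetylation of lysine 9 on histone H3 (H3K9ac), a mark found at active promoters. They were taken by symbol (Mmp, Adam, Adamts or Timp followed by a digit) from the protein-coding genes of GENCODE vM21 on chromosomes 1 to 19 and X of the mouse genome mm10 (GRCm38), with 1 metalloproteinase gene not reported here. This gave 77 of 21755 genes, namely 21 Mmp, 33 Adam, 19 Adamts and 4 Timp genes. Matrix metalloproteinases are zinc proteases that cut collagens, proteoglycans and other matrix proteins, and several are known for opening the basement membrane to invading carcinoma cells. ADAM proteins are membrane-anchored and release growth factors, cytokines and receptors from the cell surface, while a group of them acts in sperm. ADAMTS proteins are their secreted relatives, which cut proteoglycans or trim procollagens. TIMPs block the active site of these enzymes.

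H3K9ac was mapped by chromatin immunoprecipitation and sequencing in spheroids of 4T1, an established mouse mammary carcinoma line, collected on day 5. There were 4 groups with 3 libraries each. They were cells with a scramble guide, CPT1a knockout cells, and KAT2a knockout cells, all in medium with 75 µM palmitate, and CPT1a knockout cells in medium with 5 mM acetate, for which the labels do not say whether palmitate was also present. A figure legend of the study, on H3K9ac with and without acetate after CPT1a inhibition, names palmitate for these spheroids. CPT1a brings long-chain fatty acids into mitochondria for oxidation and KAT2a is a histone and protein acetyltransferase. All lines carried a doxycycline-inducible Cas9, and the knockouts were made with guides to 2 exons of the gene in selected cell populations, so a promoter peak does not check the labels (Cpt1a and Kat2a each had one in 12 of 12 libraries). The labels do not say whether the replicates were separate cultures, and the study's methods speak of biological replicates only for its statistics in general, so the p-values below measure the spread between these libraries, which may be technical.

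The data were 12 lists of 16212 to 34370 peaks, 1 per library. No read number was given. A calling depth, the mean fragment coverage at which a list was called, was recovered from the peak values and was 1.87 to 2.52 in the scramble libraries and 0.554 to 1.91 in the other 9. The line had the promoter marks of an epithelial cell. Of 8 mammary carcinoma markers 7 were called in 12 of 12 libraries, including Epcam, Cdh1, Krt8 and Krt18, while none of 8 leukocyte and none of 6 endothelial markers was called in any library. Of 6 fibroblast markers, Pdgfra was called in 12 and Col1a1 in 11 libraries and the remaining 4 in none.

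A promoter was the sequence up to 1 kb on either side of an annotated start site of transcription, and a gene was called in a library if a peak touched its promoter. Of the 77 genes, 19 were called in all 12 libraries (24.7%), 11 in some (14.3%) and 47 in none (61.0%). Over all protein-coding genes these shares were 49.5%, 5.36% and 45.1%. At least 1 library called 10 of 19 Adamts genes (52.6%), 11 of 33 Adam genes and 7 of 21 Mmp genes (33.3% each) and 2 of 4 Timp genes, against 54.9% of all coding genes. No test was made between the families.

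**Figure D1:**
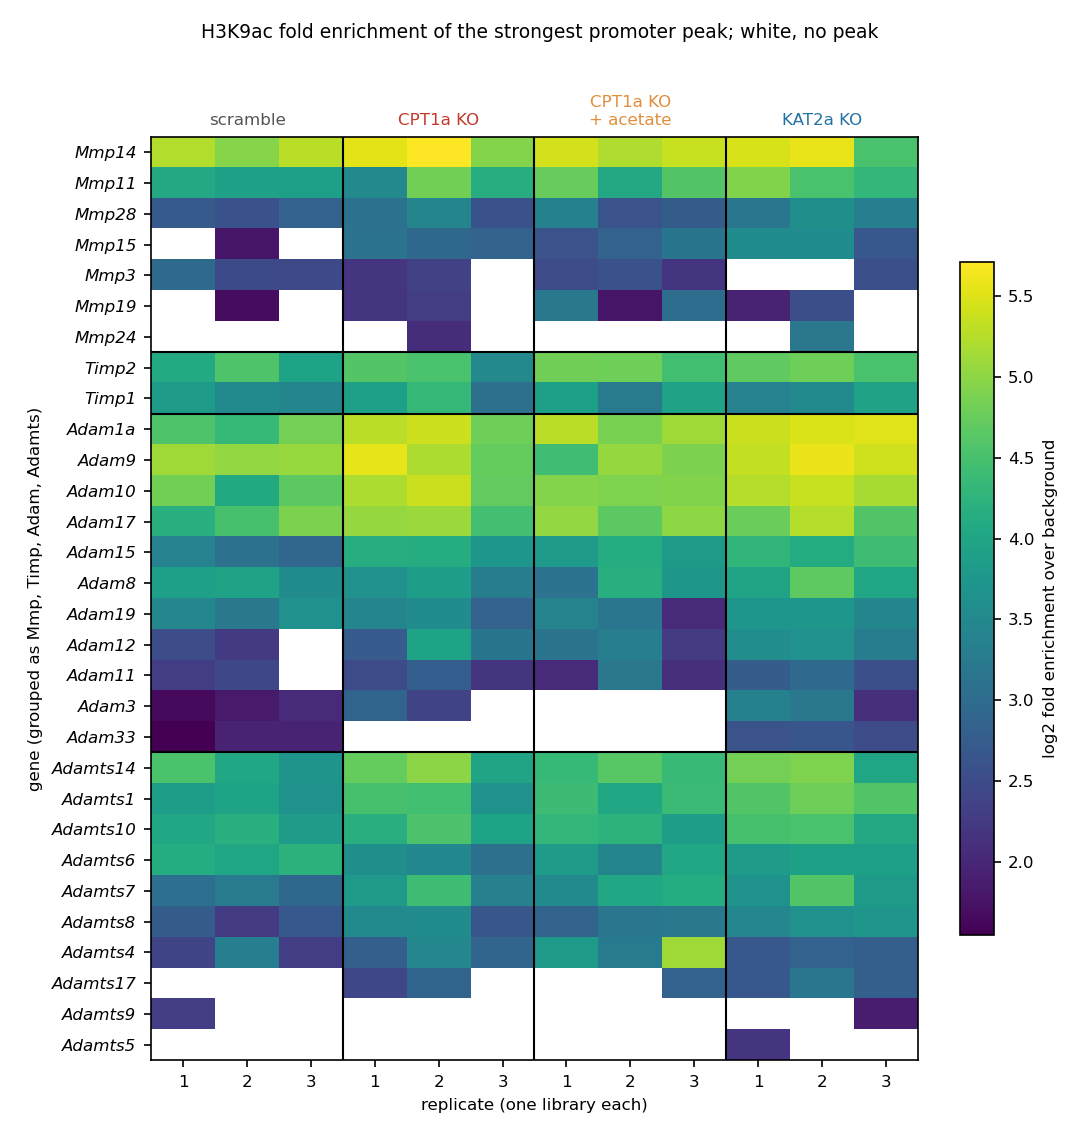
Fold enrichment of the strongest H3K9ac peak at the promoter of the 30 genes called in at least 1 library, on a log2 colour scale, by gene (rows) and library (columns, 3 per group, with KO for knockout). White cells had no promoter peak. Mmp14, Adam1a, Adam9 and Adam10 had the highest median values. Adam33, Adam3, Adamts5, Adamts9 and Mmp24 were blank in all 3 libraries of CPT1a knockout with acetate.

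Among the metalloproteinases, the mark was found at Mmp14, Mmp11 and Mmp28 in every library. Mmp14 encodes a membrane-anchored collagenase that also activates pro-MMP2, Mmp11 encodes stromelysin 3, and Mmp28 encodes epilysin, a secreted enzyme of epithelia. Mmp15, another membrane-type enzyme, was called in 10 libraries, Mmp3, which encodes stromelysin 1, in 9, Mmp19 in 8 and Mmp24 in 2. None of the 3 collagenase genes (Mmp1b, Mmp8 and Mmp13) was called, nor were the gelatinase gene Mmp2, the macrophage elastase gene Mmp12 or the matrilysin gene Mmp7. The remaining uncalled Mmp genes were Mmp10, Mmp16, Mmp17, Mmp20, Mmp21, Mmp23, Mmp25 and Mmp27.

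In the somatic ADAM class, which holds the sheddases, 9 of 12 genes were called in at least 1 library. Adam10, which cuts Notch and E-cadherin, Adam17, which releases TNF and EGFR ligands, and Adam8, Adam9, Adam15 and Adam19 were called in all 12. Adam11 and Adam12 were called in 11 libraries and Adam33 in 6, while Adam22, Adam23 and Adam28 were uncalled. Of 21 testis ADAM genes, 19 were uncalled, and the exceptions were Adam1a in 12 and Adam3 in 8 libraries. The uncalled genes of this class were Adam1b, Adam2, Adam4, Adam5, Adam6a, Adam6b, Adam7, Adam18, Adam20, Adam21, Adam24, Adam25, Adam26a, Adam26b, Adam29, Adam30, Adam32, Adam34 and Adam39.

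For the ADAMTS genes, 3 of 7 proteoglycanases (Adamts1, Adamts4 and Adamts8) were called in every library, while Adamts5, which encodes an aggrecanase of cartilage, was called in 1 library and Adamts9 in 2. Adamts14, a procollagen N-proteinase gene, was called in 12 libraries and its relatives Adamts2 and Adamts3 in none. Adamts6, Adamts7 and Adamts10 were called in 12 libraries and Adamts17 in 6. The uncalled genes also included Adamts12, Adamts13, Adamts15, Adamts16, Adamts18, Adamts19 and Adamts20. The inhibitor genes Timp1 and Timp2 were called in 12 libraries, and Timp3 and Timp4 in none.

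Some relatives that lie side by side differed in their calls, while in most neighbouring pairs both were uncalled. On chromosome 9, 9 Mmp genes from Mmp13 to Mmp7 lie within 427072 bp (chr9:7272514-7699585), and Mmp3 (chr9:7445822-7455975) was the only one with a promoter call. The whole cluster held 1 to 6 peaks per library. On chromosome 16, Adamts1 (chr16:85793827-85803113) was called in 12 libraries and Adamts5 (chr16:85856173-85901828), 53059 bp away, in 1. On chromosome 9, Adamts8 (chr9:30942562-30963838) was called in 12 and Adamts15 (chr9:30899155-30922452), 20109 bp away, in 0. On chromosome 8, Adam9 (chr8:24949611-25016927) was called in 12 and Adam32 (chr8:24836140-24948804) in 0. Both lie on the minus strand, so the 806 bp between them separate the 5′ end of Adam32 from the 3′ end of Adam9, not their promoters.

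Some of these promoters also belong to other genes, so that a peak cannot be given to 1 of them. Adam1a, the testis gene, has its start inside Mapkapk5, with a start site of that kinase gene at 251 bp, and shares its own with the gene model Gm42878. The start of Chchd10 lies 628 bp from that of Mmp11, and the start of Tm2d2 284 bp from that of Adam9. The uncalled Timp4 has its first start site within Syn2. Timp1 and Timp3 likewise start inside a synapsin gene, Syn1 and Syn3.

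Among the 77 genes, those called had the more CpG-rich promoters, as over all genes. The ratio of observed to expected CpG within 1 kb of the start sites had a median of 0.493 in the 19 genes called in all libraries, 0.381 in the 11 called in some and 0.224 in the 47 called in none. For all protein-coding genes the medians were 0.501, 0.368 and 0.219. The ranges of the members overlapped, from 0.197 to 0.708 in the first and from 0.0322 to 0.628 in the last class. Mmp3 and Mmp19 were called in 9 and 8 libraries at ratios of 0.144 and 0.101, while Timp3 was uncalled at 0.454.

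**Figure D2:**
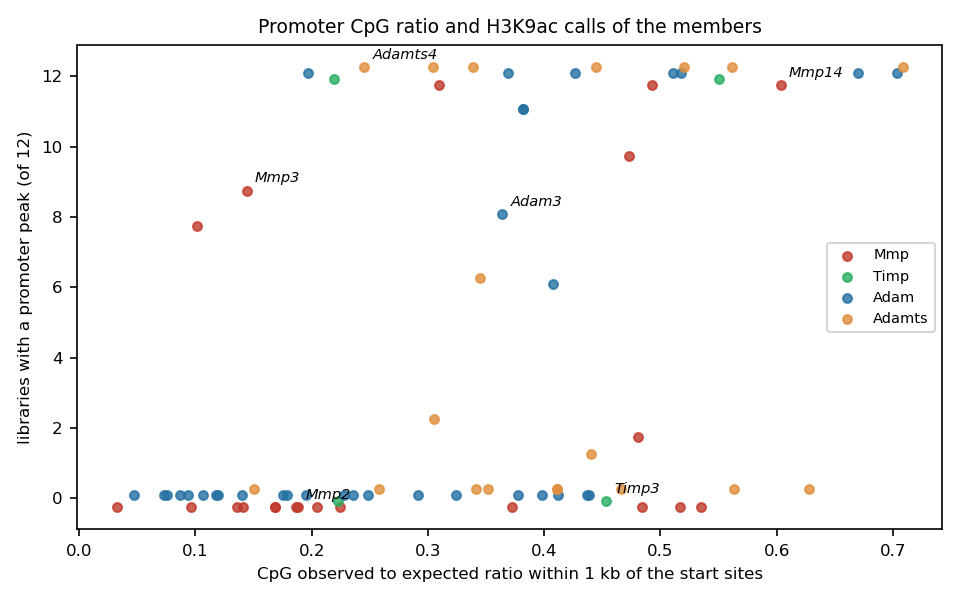
Each point is 1 of the 77 genes, placed by the CpG observed to expected ratio of its promoters (horizontal) and the number of the 12 libraries that called a promoter peak (vertical, shifted slightly by family, which the colours give). Genes called in 12 libraries lay between 0.197 and 0.708 and uncalled ones between 0.0322 and 0.628, and Mmp3 was called in 9 libraries at 0.144.

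Promoter sequences are shown for the called gene of each family with the largest rank difference between CPT1a knockout and scramble. The Mmp11 ranks behind this choice come from different peaks in some libraries, as given below. Adamts6, the gene of its family, is named only. Adam19, which passed the test below, and Mmp3, the called gene of the chromosome 9 cluster, were added after their values were seen. Each is the run of 250 bases before a RefSeq start site (GRCm38.p6), 5′ to 3′ on the strand of the gene. Capitals mark matches on either strand to the AP-1 motif TGANTCA, the TATA box TATAAA, the GC box GGGCGG or the NF-κB consensus.
Adam8 (chr7:139992563-139992812, minus strand): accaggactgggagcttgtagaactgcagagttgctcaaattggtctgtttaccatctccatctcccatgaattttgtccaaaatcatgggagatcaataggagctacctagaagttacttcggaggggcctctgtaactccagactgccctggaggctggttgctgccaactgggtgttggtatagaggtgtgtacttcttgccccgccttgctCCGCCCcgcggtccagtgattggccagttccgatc
Mmp11 (chr10:75932503-75932752, minus strand): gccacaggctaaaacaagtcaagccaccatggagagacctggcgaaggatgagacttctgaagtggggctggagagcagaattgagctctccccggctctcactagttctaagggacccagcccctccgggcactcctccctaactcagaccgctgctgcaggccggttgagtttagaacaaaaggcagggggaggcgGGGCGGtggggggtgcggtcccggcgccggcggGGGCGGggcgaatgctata
Timp2 (chr11:118355412-118355661, minus strand): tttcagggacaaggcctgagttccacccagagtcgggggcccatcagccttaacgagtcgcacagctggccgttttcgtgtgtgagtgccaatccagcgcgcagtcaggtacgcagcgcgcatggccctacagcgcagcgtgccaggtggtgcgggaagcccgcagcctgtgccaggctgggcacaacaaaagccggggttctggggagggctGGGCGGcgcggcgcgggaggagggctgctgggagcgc
Adam19 (chr11:46055734-46055983, plus strand): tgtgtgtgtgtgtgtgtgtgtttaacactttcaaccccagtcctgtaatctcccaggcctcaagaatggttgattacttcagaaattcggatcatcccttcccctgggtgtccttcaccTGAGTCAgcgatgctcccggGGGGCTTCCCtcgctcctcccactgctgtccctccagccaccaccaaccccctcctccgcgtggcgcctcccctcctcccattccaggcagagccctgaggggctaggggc
Mmp3 (chr9:7445572-7445821, plus strand): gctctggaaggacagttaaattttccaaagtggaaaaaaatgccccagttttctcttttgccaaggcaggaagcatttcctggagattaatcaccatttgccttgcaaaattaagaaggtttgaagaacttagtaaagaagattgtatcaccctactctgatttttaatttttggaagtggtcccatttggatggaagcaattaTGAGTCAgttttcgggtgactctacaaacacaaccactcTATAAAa

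Counted from the start site, Adam8 held a GC box at -35, Timp2 held one at -37, and Mmp11 held a pair at -52 and -19. Adam19 held an AP-1 match at -131 and an NF-κB match at -111. Mmp3 held an AP-1 match at -46 and a TATA box at -7. The reference table had an entry for 48 of the 77 genes. A GC box was found in 11 of 13 genes called in all libraries, in 3 of 5 called in some and in 6 of 30 uncalled, against 32.7% of all 32851 promoter entries. The AP-1 letters were found in 1 of 13, 1 of 5 and 9 of 30 (6.75% of all entries), the uncalled genes with a match being Mmp1b, Mmp7, Mmp10, Mmp12, Mmp13, Mmp20, Adam20, Adam25 and Adam29. A TATA box was found in 1 of 13, 1 of 5 and 9 of 30 (12.4% of all entries), and an NF-κB match in 1 of 13, 0 of 5 and 2 of 30 (3.90%). A match is a description of the letters and not of a bound site, and a GC box itself holds a CpG.

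In the strongest promoter peak of each of the 19 genes in each library (228 peaks), the summit lay downstream of the nearest start site in 86.0%, at a median of 268 bp into the gene. Away from promoters, 5 of the 19 genes called in all libraries and 42 of the 47 uncalled genes had no peak within the gene in any library. Mmp2 had 1 peak within the gene in 10 libraries and Adamts13 in 7, without a promoter call, and Timp2 had up to 7 such peaks, with a median of 3.

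The number of called genes per library was close between groups. The counts were 25, 26 and 22 in scramble, 26, 27 and 22 in CPT1a knockout, 24, 24 and 25 in CPT1a knockout with acetate, and 27 in each library of KAT2a knockout. Group means were 24.3 ± 2.08, 25.0 ± 2.65, 24.3 ± 0.577 and 27 ± 0.0 of 77 (SD, n = 3), which is 31.6%, 32.5%, 31.6% and 35.1%, against 51.8%, 52.0%, 52.0% and 53.2% of all coding genes. Calling depth was highest in scramble replicate 1 (2.52), and the other 2 scramble libraries (1.87 and 1.90) lay just below replicate 3 of the acetate group (1.91). When every list was reduced to a calling depth of 0.55 and only peaks with a -log10 p of at least 5 were kept, the counts were 16, 18 and 17 in scramble, 23, 23 and 22 in CPT1a knockout, 22, 23 and 21 with acetate, and 23, 26 and 24 in KAT2a knockout. The scramble counts then lay below those of all other groups. The same reduction left 48.4% of all coding genes called in scramble and 51.0%, 50.7% and 51.6% in the other groups. No test was made of these counts.

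Calls that differed fully between groups, in 3 of 3 against 0 of 3 libraries, were few. Adam33, an ADAM gene of mesenchymal tissue, was called in scramble at a fold enrichment over background of 2.92, 3.85 and 3.86 and in KAT2a knockout at 6.12, 6.33 and 5.73, and in no library of CPT1a knockout with or without acetate. It was the only 1 of 77 for CPT1a knockout against scramble (0.23% of all coding genes met this rule). For CPT1a knockout with acetate against scramble, Adam33 and Adam3 met it (0.345% of all coding genes). Adam3, a sperm surface gene, had values of 3.15, 3.61 and 4.15 in scramble, 7.36 and 5.28 in 2 libraries of CPT1a knockout, and 10.3, 9.23 and 4.36 in KAT2a knockout. For KAT2a knockout against scramble, Adamts17, which was called in all KAT2a knockout libraries at 6.49, 9.08 and 6.97, met the rule (0.754% of all coding genes). None of the 77 did for CPT1a knockout with acetate against CPT1a knockout (0.0184% of all coding genes).

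These calls changed at the equal calling depth of 0.55, where the stricter cut on p also applied, so that depth and cut cannot be told apart. With a -log10 q of at least 5 in the lists as deposited, Adam33 was called in 0 of 3 and Adam3 in 1 of 3 scramble libraries. At equal depth, neither Adam33 nor Adam3 was called in any scramble library, and Adamts17 was called in 2 of 3 KAT2a knockout libraries. Other genes then met the rule, all called in the knockout and not in scramble. They were Adam11, Adam12, Mmp15 and Adamts8 for CPT1a knockout against scramble (1.38% of all coding genes), these 4 and Adam33 for KAT2a knockout against scramble (1.74%), Mmp15 and Adamts8 for CPT1a knockout with acetate against scramble (1.08%), and none when acetate-treated were set against untreated CPT1a knockout cells (0.0827%). Mmp15 was called in the lists as deposited in 1 scramble library, at 3.44, and in all 9 others, at 6.10 to 11.9. Mmp3 was called in 3 of 3 scramble libraries at 7.93, 5.57 and 5.52, in 2 of 3 in CPT1a knockout, in 3 of 3 with acetate and in 1 of 3 in KAT2a knockout, and in 1 of 12 libraries at equal depth.

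To compare the strength of the mark between libraries, the strongest promoter peak of each gene was ranked by fold enrichment within its library, from 0 (lowest) to 100 (highest), among the 10777 genes called in all 12 libraries. The 19 members called in all libraries spread over the whole scale. Mmp14 had a median rank of 95.3, Adam9 of 89.5, Adam1a of 85.8, Adam10 of 79.4 and Adam17 of 66.9. Timp2 had a median rank of 38.4 and Timp1 of 13.5. At the bottom were Adamts4 with 1.79, Mmp28 with 2.03, Adamts8 with 3.43 and Adam19 with 4.61. Neighbours in this order, such as Adam9 and Adam1a, overlapped in their ranges over libraries.

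Adamts6 was called in all 3 comparisons with scramble. It encodes a secreted ADAMTS protease known for its part in heart development and in binding to fibrillin. Its rank was 43.7, 34.4 and 49.1 in scramble. It was 5.91, 2.28 and 6.56 in CPT1a knockout, 10.7, 7.58 and 17.3 in CPT1a knockout with acetate, and 7.86, 7.55 and 13.4 in KAT2a knockout. Every scramble library thus lay above every library of the other 3 groups. The fold enrichment of the same peaks was 17.5, 16 and 18.6 in scramble and 8.44 to 16.5 in the other 9 libraries. The difference in rank was -37.5 ± 4.40 for CPT1a knockout against scramble (SE, limma with Benjamini-Hochberg adjusted p = 0.000393), -32.8 ± 4.40 for KAT2a knockout against scramble (limma, adjusted p = 0.00205) and -30.5 ± 4.40 for CPT1a knockout with acetate against scramble (limma, adjusted p = 0.00216). These 3 comparisons share the scramble libraries. With acetate, the rank was 6.97 ± 4.40 above that of CPT1a knockout (limma, adjusted p = 0.682). The promoters of Adamts6 had the lowest GC content of the 19 genes, 39.2% against a median of 53.6%, and removing the trend of rank with GC in each library left differences of -19.2 (limma, adjusted p = 0.0313), -13.8 (adjusted p = 0.145) and -11.9 (adjusted p = 0.192) against scramble.

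Adam19, which encodes a protease that sheds neuregulin, was the other called gene. Its rank was 14.9, 8.83 and 22.5 in scramble and at most 6.27 in the other 9 libraries. The summit of the ranked peak lay 1727, 1727 and 1765 bp from the nearest start in the scramble libraries, outside the promoter, and 114 to 332 bp from it in the other 9. The ranks of scramble and of the other groups thus come from different summits, and no Adam19 peak in scramble had its summit inside the promoter. On this measure it fell in CPT1a knockout, by 11.8 ± 2.93 from scramble (SE, limma, adjusted p = 0.0219), and in CPT1a knockout with acetate, by 12.6 ± 2.93 (limma, adjusted p = 0.0239). In KAT2a knockout the difference from scramble was -9.90 ± 2.93 (limma, adjusted p = 0.0714). The call was lost when the GC trend was removed (adjusted p = 0.206 and 0.149 with limma), and leaving out scramble replicate 1 or 3 gave limma adjusted p of 0.0548 and 0.0697 for CPT1a knockout and 0.0622 and 0.0643 with acetate. The first call was also lost without CPT1a knockout replicate 2 or 3 (limma, adjusted p = 0.0543 and 0.0528), and the second without any 1 of the 3 acetate libraries (0.0592, 0.0631 and 0.0923).

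**Figure D3:**
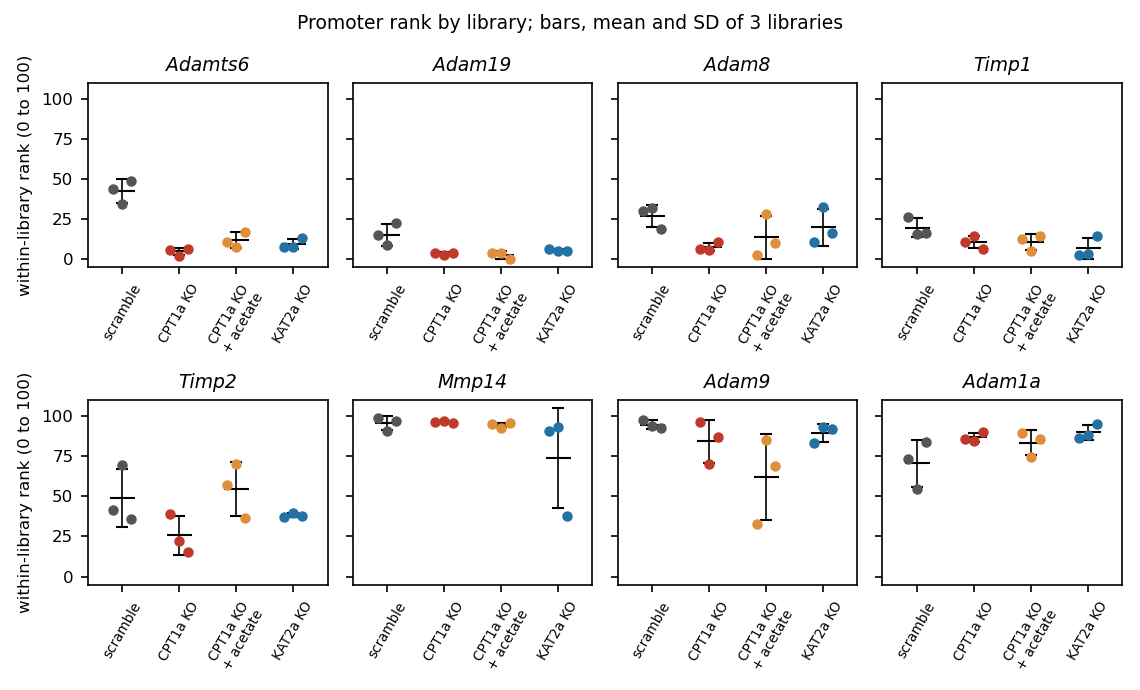
Within-library rank of the strongest promoter peak (vertical axis, 0 to 100) for 8 genes, with 1 point per library, grouped by genotype and treatment (KO, knockout). Bars give the mean and SD of 3 libraries. For Adamts6, scramble libraries lay at 34.4 to 49.1 and all others at 17.3 or below, and the single low point of Mmp14 is KAT2a knockout replicate 3.

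For CPT1a knockout against scramble, 2 of 19 members had a lower rank (Adamts6 and Adam19) and 0 a higher one by limma, while 5.24% and 4.77% of all 10777 genes tested did. At an unadjusted p under 0.05, 4 members were lower and 0 higher (21.1%, against 27.1% of all genes). The median difference was -2.18 over the members and 0.217 over all genes. For KAT2a knockout against scramble, 1 of 19 was lower (Adamts6) and 0 higher, against 2.71% and 1.70% of all genes. Here 3 members were lower and 2 higher at an unadjusted p under 0.05 (26.3%, against 20.8% of all genes), and the medians were -5.10 and 0.104. For CPT1a knockout with acetate against scramble, 2 of 19 were lower (Adamts6 and Adam19) and 0 higher, against 3.90% and 1.66% of all genes. The unadjusted counts were 4 and 0 (21.1%, against 22% of all genes), and the medians 0.0139 and 0.148. For CPT1a knockout with acetate against CPT1a knockout, limma called 0 of 19 in either direction, against 0.0278% higher and 0.0186% lower of all genes, and 2 members (Adamts4 and Timp2, both higher) had an unadjusted p under 0.05 (10.5%, against 9.10% of all genes).

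A looser rule, that the ranks of both groups do not overlap, held for 6 of 19 (31.6%) against 30.9% of all genes for CPT1a knockout against scramble, 6 of 19 against 29.3% for KAT2a knockout against scramble, 4 of 19 (21.1%) against 31.9% for the acetate group against scramble, and 4 of 19 against 14.2% for the acetate group against CPT1a knockout. With 3 libraries against 3, an exact permutation test cannot give a p below 0.1.

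**Figure D4:**
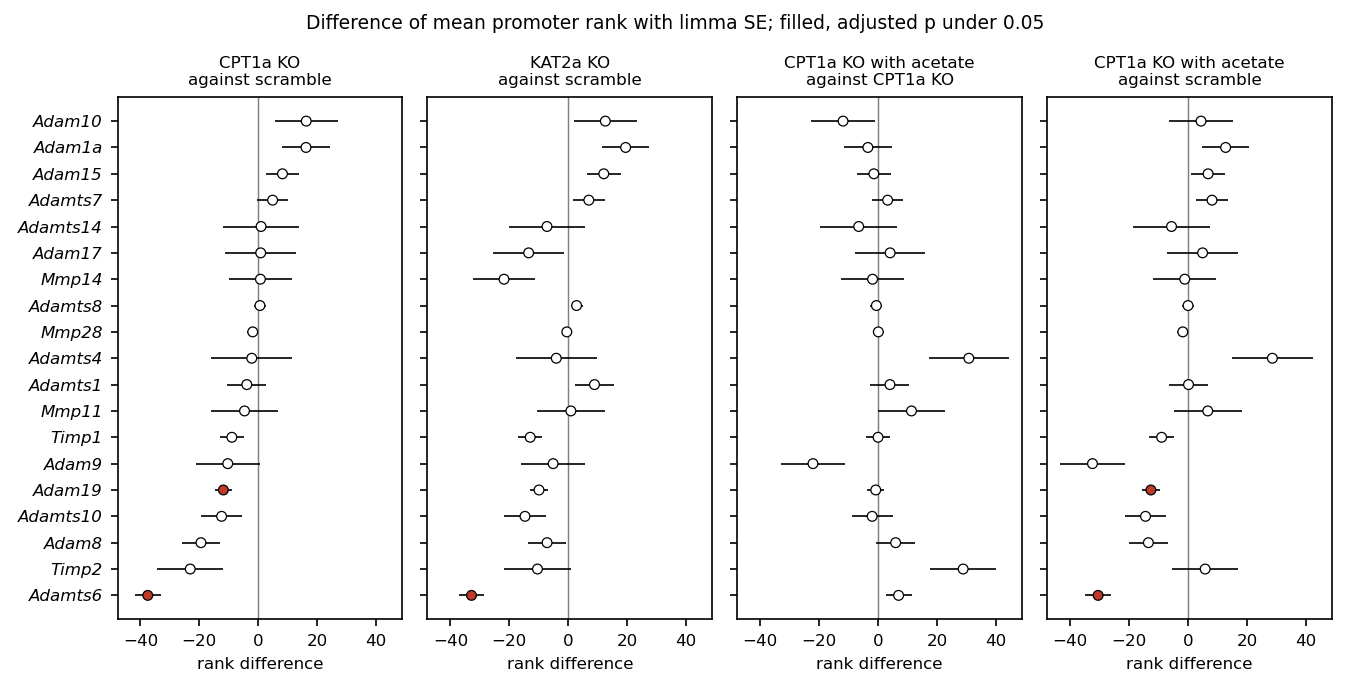
Difference in mean promoter rank (horizontal, with the SE from limma) for the 19 genes called in all libraries, in the 4 comparisons (KO, knockout). Filled points had an adjusted p under 0.05, which were Adamts6 and Adam19 below scramble in CPT1a knockout with and without acetate and Adamts6 in KAT2a knockout.

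The inhibitors and the main sheddases did not pass the main test on ranks in any comparison. Timp1, whose product inhibits most soluble metalloproteinases, ranked at 26.6, 15.9 and 16.7 in scramble, and every library of the other groups lay below these values. They were 10.9, 14.8 and 6.73 in CPT1a knockout, 12.5, 5.33 and 14.5 with acetate, and 2.88, 3.13 and 14.5 in KAT2a knockout. The limma adjusted p against scramble was 0.178, 0.220 and 0.0911. Timp2, whose product also takes part in pro-MMP2 activation with MMP14, ranked at 41.2, 69.4 and 35.6 in scramble, at 39.0, 22.4 and 15.5 in CPT1a knockout and at 57, 70.0 and 36.7 with acetate. CPT1a knockout differed from scramble by -23.1 ± 11.3 (limma, adjusted p = 0.202). The difference of 28.9 ± 11.3 between CPT1a knockout with and without acetate had a limma adjusted p of 0.453. Over the libraries, the summit of the ranked Timp2 peak lay 497 to 1300 bp from the nearest start (median 1139 bp). In many libraries it thus lay outside the promoter. Adam10 ranked between 37.8 and 88.8 and Adam17 between 42.2 and 85.7 over all libraries. Adam10 ranked at 81.5, 83.3 and 86.1 in CPT1a knockout, at 78.2, 81.0 and 80.6 in KAT2a knockout and at 66.8, 77.0 and 71.4 in the acetate group, 3 groups that did not overlap, while the scramble libraries (88.8, 37.8 and 75.3) spanned them all.

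Single libraries set some of the spread. Mmp14 ranked between 90.6 and 98.9 in 11 libraries and at 37.7 in KAT2a knockout replicate 3, and its difference between KAT2a knockout and scramble was -21.8 ± 10.7 (limma, adjusted p = 0.262). Adam9 ranked between 68.9 and 97.7 in 11 libraries and at 32.9 in CPT1a knockout with acetate replicate 1. Adamts4 ranked between 0.348 and 11.4 in 11 libraries and at 85.2 in CPT1a knockout with acetate replicate 3. In that library the peak touching its promoter was 4332 bp wide with its summit at -3841 bp from the nearest Adamts4 start, so the ranked value was that of a peak centred outside the promoter. The same held for the next highest Adamts4 ranks, 11.4 in scramble replicate 2 (summit at -2550 bp) and 9.54 in acetate replicate 1 (-2557 bp). Adam8, which is found on myeloid and on invasive carcinoma cells, ranked at 30.4, 31.9 and 19.1 in scramble and at 6.46, 5.70 and 10.9 in CPT1a knockout, a difference of -19.4 ± 6.58 (limma, adjusted p = 0.0745).

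The width of the strongest promoter peak was compared on a log2 scale relative to its median over the 10777 genes in the same library. These medians ranged from 1444 to 2886 bp. Mmp28 was the member whose width differed most often. Its peak measured 698, 740 and 836 bp in scramble, 1095, 1134 and 630 bp in CPT1a knockout, 1231, 1038 and 1295 bp with acetate, and 1377, 1260 and 1105 bp in KAT2a knockout. In base pairs, the acetate and KAT2a knockout libraries all lay above scramble, while CPT1a knockout replicate 3 lay below. That list had the lowest depth and the lowest of these medians (1444 bp). The scramble promoters were split into 2, 3 and 2 peaks and those of the other 9 libraries held 1, and the summed length was 1554 ± 240 bp for scramble, 953 ± 280 bp for CPT1a knockout, 1247 ± 136 bp for KAT2a knockout and 1188 ± 134 bp for the acetate group (SD, n = 3). Relative to the library median, the strongest peak of Mmp28 was 1.58-fold wider in CPT1a knockout (log2 difference 0.66 ± 0.18, limma, adjusted p = 0.0333), 1.82-fold wider in KAT2a knockout (0.87 ± 0.18, adjusted p = 0.0144) and 1.86-fold wider in CPT1a knockout with acetate (0.89 ± 0.18, adjusted p = 0.0139) than in scramble. When the promoter peaks were merged or their lengths summed, the limma calls were lost, and in CPT1a knockout the summed length was lower than in scramble (log2 difference -0.16). The call for CPT1a knockout was lost without scramble replicate 1, CPT1a knockout replicate 1 or 2, or KAT2a knockout replicate 1 (limma adjusted p of 0.0616, 0.110, 0.116 and 0.0502), and that for KAT2a knockout without its replicate 1 (0.0611).

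The strongest peak of Adamts8 was 2.48-fold wider in KAT2a knockout than in scramble (log2 difference 1.31 ± 0.37, limma, adjusted p = 0.0401), with peaks of 1751, 2059 and 1377 bp against 876, 787 and 648 bp. The scramble promoters held 4, 3 and 2 peaks with summed lengths of 1926, 1228 and 1218 bp, and those of KAT2a knockout held 1, 1 and 2 peaks with 1751, 2059 and 1601 bp. The call was lost when any scramble or KAT2a knockout library, or CPT1a knockout replicate 1 or 2, was left out (limma adjusted p of 0.0513 to 0.115). For Adam15 it was 2.20-fold wider in CPT1a knockout with acetate than in scramble (1.14 ± 0.33, limma, adjusted p = 0.0493), with 3326, 2546 and 3551 bp against 2569, 2355 and 776 bp, so that scramble replicate 1 exceeded one acetate library in base pairs, and without scramble replicate 3 the difference was 0.64 (adjusted p = 0.0831). Every scramble library held 2 peaks at this promoter, and the summed length was 3285 ± 293 bp in scramble and 3246 ± 663 bp with acetate (SD, n = 3). Leaving out 1 library ended the Adam15 call in 10 of 12 cases (limma adjusted p up to 0.126), the exceptions being scramble replicates 1 and 2. Mmp14 had the widest peaks of the members, at 9236, 5784 and 6664 bp in scramble and 4115 to 5165 bp in the other 9 libraries. Its differences from scramble did not pass the test (limma adjusted p of 0.154, 0.0727 and 0.152 for CPT1a knockout, KAT2a knockout and CPT1a knockout with acetate).

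**Figure D5:**
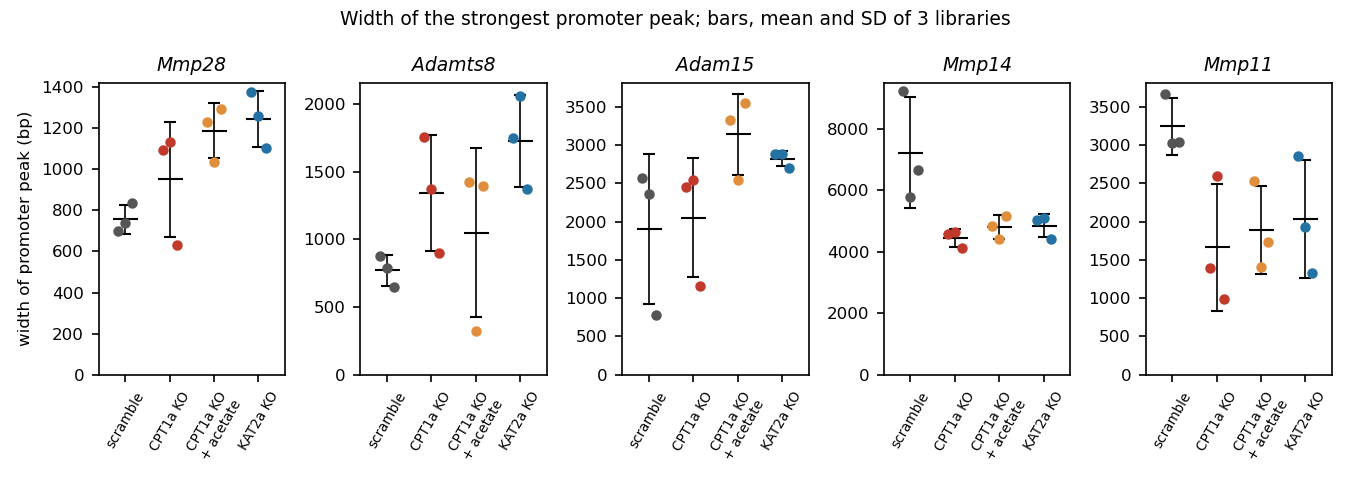
Width in bp (vertical axis, from 0) of the strongest promoter peak of 5 genes, with 1 point per library and bars for the mean and SD of 3 libraries (KO, knockout). The Mmp28 peak measured 698 to 836 bp in scramble and 1038 to 1377 bp in the acetate and KAT2a knockout groups, and the Mmp14 peak was widest in scramble. The Mmp11 peak was not the same one in all libraries.

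By limma, 1 of 19 members was wider in CPT1a knockout than in scramble (Mmp28) and 0 narrower, against 7.44% and 7.27% of all genes. In KAT2a knockout 2 were wider (Mmp28 and Adamts8) and 0 narrower, against 6.08% and 5.93%. In CPT1a knockout with acetate 2 were wider than in scramble (Mmp28 and Adam15) and 0 narrower, against 5.53% and 4.49%. Between CPT1a knockout with and without acetate, 0 of 19 were wider and 0 narrower, against 0% and 0% of all genes. At an unadjusted p under 0.05, 2 members were narrower than scramble in each of the first 3 comparisons, Mmp11 and Mmp14 in each case, and 4, 5 and 4 were wider. These were 31.6%, 36.8% and 31.6% of the members, against 31.9%, 30.1% and 27.8% of all genes. In the last comparison 0 members differed in either direction, against 4.65% of all genes. The Mmp11 peak of scramble replicate 1 lay at chr10:75919832-75923502, and the scramble summits lay 3230, 3151 and 1555 bp from the nearest start. In CPT1a knockout replicate 1 it was another peak, at chr10:75931650-75933045, with its summit at 285 bp. That second peak was also the one measured in CPT1a knockout replicate 3, acetate replicates 2 and 3 and KAT2a knockout replicates 2 and 3. The Mmp11 widths and ranks thus compare different peaks.

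A list of 57 genes that act with these proteases, among them activators, partners of ADAM10 and ADAM17, shed substrates and other inhibitors, was examined beside them. Of these, 34 were called in all libraries (as were 49.5% of all coding genes) and 15 in none. For CPT1a knockout against scramble, 2 of 34 had a higher rank and 0 a lower one by limma, beside 4.77% and 5.24% of all genes. At an unadjusted p under 0.05, 9 were higher and 2 lower (11 of 34, against 27.1% of all genes). Pcsk7, which encodes a furin-like convertase, rose from 59.0, 45.7 and 35.9 in scramble to 99.1, 87.6 and 79.8 in CPT1a knockout, a difference of 41.9 ± 10.3 (limma, adjusted p = 0.0210). Tspan15, which encodes a tetraspanin that escorts ADAM10, rose from 7.21, 5.25 and 2.01 to 33.0, 15.9 and 25.8, a difference of 20.1 ± 4.25 (limma, adjusted p = 0.0105). With acetate, Tspan15 ranked at 13.2, 9.87 and 4.57 and Pcsk7 at 67.6, 73.2 and 76.6. In the 3 other comparisons, limma called 0 of the 34 genes. Over all genes it called 1.70% higher and 2.71% lower for KAT2a knockout against scramble. These shares were 0.0278% and 0.0186% for the acetate group against CPT1a knockout, and 1.66% and 3.90% for the acetate group against scramble. At an unadjusted p under 0.05, in the same order, the counts were 4, 3 and 7 of 34. The shares of all genes were 20.8%, 9.10% and 22%.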

How the data were processed

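The 12 deposited H3K9ac peak lists were used, 1 per library, called by the authors without pooling replicates. The 12 input libraries were not analysed here. Per the methods, the authors trimmed reads, used BWA for alignment to mm10 and Picard to remove duplicates. The submitters' processing notes also name FastQC, Bowtie2, SAMtools, deepTools and MACS2, and the use of the inputs is not given in the sources used here. The spike-in chromatin was not used, so total H3K9ac was not measured. The labels and the methods name different antibodies against H3K9ac.

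Each list holds, as deposited by the authors, a fold enrichment over local background (a ratio), the -log10 p and -log10 q of the peak, and a score. These values are relative to 1 library and were not scaled between libraries, so fold enrichment was turned into a rank within each library, which cannot show a shift common to all promoters. Peaks on chromosome Y were set aside. A promoter was 1000 bp either side of any start site of the coding genes (GENCODE vM21), and 1 bp of overlap counted. Calling depth was recovered by inverting the formulas of MACS2 for peaks with -log10 p below 300, which succeeded for 97.9% to 100.0% of peaks. At equal depth, peaks with -log10 p of at least 5 were kept. The inversion and the test were checked on simulated data.

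Ranks and log2 widths were tested with limma 3.58.1 in R 4.3.3 (12 libraries in one fit, trend in the variance), two-sided, with Benjamini-Hochberg adjustment over 10777 genes at 0.05. The members and lists were chosen with earlier results of these data known. Named are every Timp gene and every Mmp gene with a promoter peak, per comparison up to 8 members called for rank and 4 for width, members called in 3 of 3 and 0 of 3 libraries, and up to 5 genes of the accompanying list. Other genes were named for their position in a cluster, for their part in the family or for a library that stood apart, chosen after values were seen. Motifs were searched on both strands of 250 bases of RefSeq promoter entries (GRCm38.p6). Protein sequences were not analysed here.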

Additional observations from a re-analysis of the deposited data

How the results depend on the processing

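Read depth was not used here, and calling depths ran from 0.554 to 2.52, which limits the calls of weak promoters. Ranking by -log10 p called 5 members for CPT1a knockout against scramble and 6 for KAT2a knockout against scramble. Normal scores called 1 in the former, and a fit of only the 6 libraries of a comparison called 1, 0 and 1 against scramble. For KAT2a knockout, removing the GC trend called 0, merging peaks within 500 bp 2 and requiring a peak in at least 6 libraries 2. For CPT1a knockout with acetate against scramble, equal depth called 1, since Adam19 then left the test. Leaving out 1 library gave 1 to 3, 1 to 2, 0 to 0 and 1 to 2 rank calls in the order of the 4 comparisons, and 0 to 4, 0 to 5, 0 to 0 and 1 to 4 width calls. The highest width counts came without the second scramble replicate. Adamts6 kept its call in 22 of 22 alternatives for CPT1a knockout, 20 of 22 for KAT2a knockout and 21 of 22 with acetate, and Adam19 in 14 of 21 for each of its calls.

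Widths depended more on the processing. Against scramble, merging called 4 members in each of the 3 comparisons, equal depth 0 in each, and uncentred widths 3, 0 and 0, and the summed length called 3 in CPT1a knockout. The summed length turned the Mmp28 difference in CPT1a knockout to -0.16. The cause of these changes was not tested. Replicate numbers did not pair the libraries: the deviations of same-numbered libraries correlated between -0.0618 and 0.0673 in 18 pairs, and 2 of 12 libraries correlated best with their own number. With the replicate number as a block, 3, 1, 0 and 2 members were called for rank and 0, 1, 0 and 1 for width.

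The mean number of called members moved in scramble to 22 with a -log10 q of at least 5, 18.3 at equal list length and 17.0 at equal depth. With acetate it moved to 23.3 with the summit inside the window, 22 at equal list length and 22 at equal depth. In KAT2a knockout it moved to 26.0, 26.3 (500 bp window), 26.3 (summit inside), 25.0 and 24.3. Leaving out 1 library gave means of 23.5 to 25.5 in scramble, 24.0 to 26.5 in CPT1a knockout, 24.0 to 24.5 with acetate and 27 in KAT2a knockout.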
